A study of Mus musculus with 12 samples.

Results

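The DNA damage checkpoint and p53 family of the mouse oocyte is represented here by 10 genes: the kinases *Atm*, *Atr*, *Chek1* and *Chek2*, the transcription factors *Trp53* and *Trp63*, their regulators *Mdm2* and *Mdm4*, and the death effectors *Bbc3* and *Pmaip1*. They were chosen by name, and each was found once among the 55401 genes of the count table. The libraries were made from oocytes of primordial follicles, the dormant follicles of the ovarian reserve, and of primary follicles, the first stage after activation. Ovaries of C57BL/6JRj x CBA/JRj F1 hybrid females (labelled C57Bl/6j x CBA/J), 7 to 8 days old, were kept in culture over 5 days, either with the solvent DMSO as the control or with dorsomorphin (DM), which inhibits AMPK. All 4 groups therefore shared the strain, the age and the culture procedure, and they differed in follicle stage and in DM. The labels call the control a sham treatment and the material in vivo, whereas the methods describe cultured ovaries, and the latter description is used here. Oocytes were cut by laser capture microdissection (LCM) from fixed, paraffin-embedded sections on the basis of morphology, pooled, and their RNA was amplified. Each group had 3 libraries, and nothing in the labels says which libraries came from the same ovaries or culture, so p-values measure the spread between these libraries, which may be technical in part.

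ATM and ATR are the kinases that respond to double-strand breaks and to stalled replication or single-stranded DNA, respectively, and they activate the checkpoint kinases CHK2 and CHK1. In oocytes of the reserve the main target is TAp63, a p53 family protein made from *Trp63*, which is held inactive until it is phosphorylated and then drives death of the damaged oocyte through PUMA (*Bbc3*) and NOXA (*Pmaip1*). MDM2 and its relative MDM4 restrain p53. Much of this pathway is regulated by phosphorylation, which counts of RNA do not measure, and the counts per gene do not separate the TA and ΔN forms of *Trp63*.

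Total counts per library ranged from 14034586 to 42639326. A count of 0 was taken to allow up to 3 counts in a library, which is 0.0704 to 0.214 CPM, a gene's counts relative to the total of its library, and this limit covers counting error only, since amplified reads without molecular identifiers are not independent molecules. A gene is called detected below where a library had more than 3 counts. Of 16 oocyte marker genes, 11 to 14 were detected per library in primordial control, 4 to 9 in primordial DM, 9 to 13 in primary control and 6 to 11 in primary DM oocytes. Genes of other cells were also present. *Foxl2* of granulosa cells was detected in all 12 libraries, and the summed level of 8 stroma and theca markers ranged from 1638.7 to 12530.6 CPM, while *Fshr* was at 0 in every library. Any level below is therefore that of a captured spot rather than of a pure oocyte, and fewer cells of a type cannot be told apart from less RNA per cell.

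Detection of the 10 genes varied from library to library within every group. Of 120 values, 63 were above 3 counts and 38 were 0. The libraries of replicates 1, 2 and 3 detected 7, 5 and 8 of the 10 genes in primordial control oocytes and 6, 8 and 2 in primordial DM oocytes. Corresponding numbers were 7, 6 and 6 in primary control and 2, 2 and 4 in primary DM oocytes. The primary DM libraries thus held fewer of these genes than any control library. Genes of any kind detected in them numbered 4670 to 5314, against 4206 to 7839 in primary control and 7085 to 10687 in primordial control oocytes, and the part of this in the lower number of checkpoint genes was not tested. *Atr* was detected in 12 libraries, *Mdm4* in 11, *Trp63* in 9, *Atm* in 8, *Mdm2* in 7, *Chek1* in 6, *Trp53* in 5, *Bbc3* in 3 and *Chek2* in 2. *Pmaip1* was detected in no library.

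**Figure D1:**
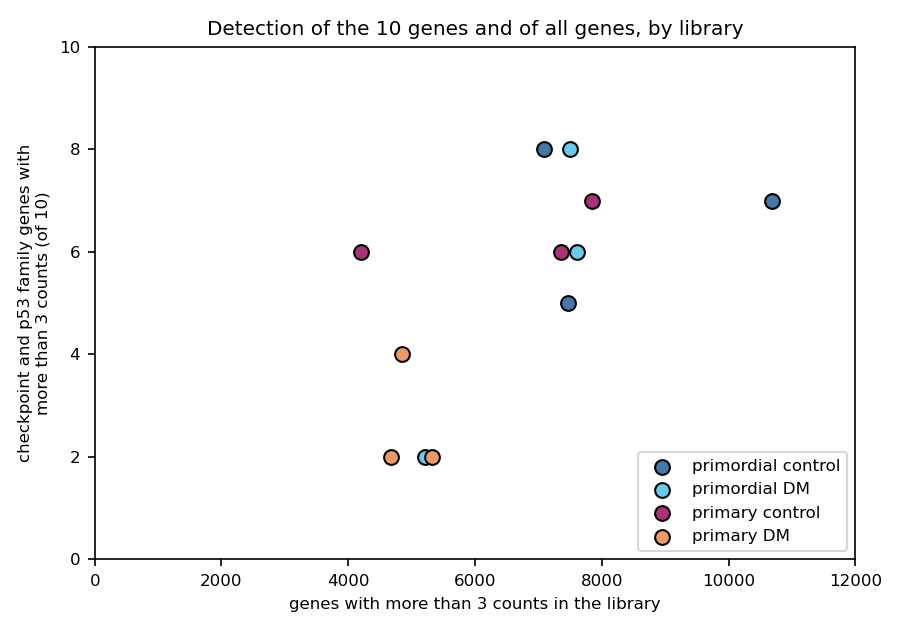
Number of the 10 checkpoint and p53 family genes with more than 3 counts (vertical axis) against the number of all genes with more than 3 counts (horizontal axis), 1 point per library, coloured by group. The 3 primary DM libraries lie at 2 to 4 checkpoint genes and 4670 to 5314 genes, and 1 primordial DM library lies beside them at 2 genes.

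A single library carried much of the signal of most genes. The highest library held 80.1% of the CPM of *Atm* summed over the 12 libraries, 72.9% of *Chek2*, 66.5% of *Bbc3*, 53.4% of *Chek1* and 52.7% of *Trp53*. These concentrations were ordinary for this table: 54.3% of the 8500 genes that passed the expression filter over 12 libraries had more than 50% of their summed CPM in 1 library, and so had 6 of the 10 genes. *Mdm4* was the most evenly spread, with 29.7% in its highest library, primordial control replicate 3. The highest library was a control for 8 of the 10 genes, compared with 53.8% of the 8500 genes. Unlike those 8500, *Chek2* and *Pmaip1* did not pass that filter, and *Pmaip1* rests on 3 counts in all. For the 8 genes that passed, the median share in the highest library was 51.1%, against 52.3% for the 8500 genes.

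**Figure D2:**
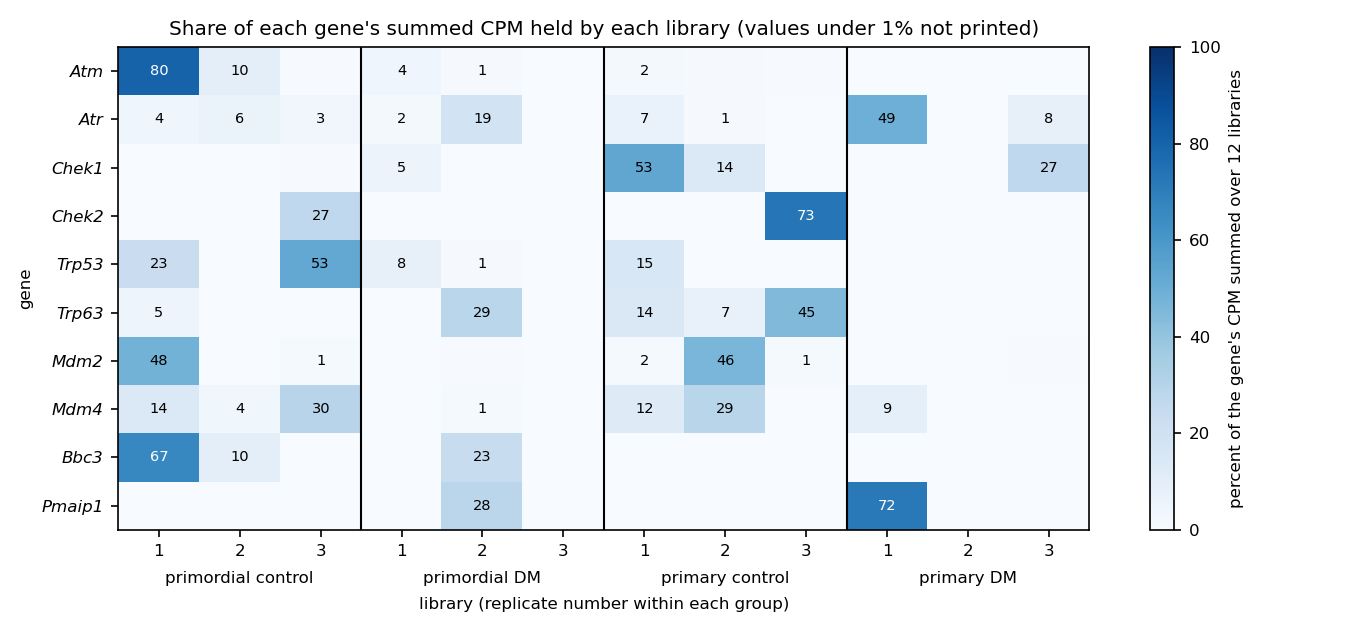
Percent of each gene's CPM, summed over the 12 libraries, held by each library (columns are replicates 1 to 3 of the 4 groups, and darker blue is a larger share). *Atm* has 80.1% in primordial control replicate 1 and *Chek2* 72.9% in primary control replicate 3, while *Mdm4* is spread over 5 libraries with 9% or more each; the row of *Pmaip1* rests on 3 counts in all.

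Per kilobase of exon, *Atr* had the highest median level over the 12 libraries, 3.67 CPM per kilobase, followed by *Mdm4* with 1.02 CPM per kilobase. *Atm*, *Trp63*, *Mdm2* and *Chek1* had medians between 0.030 and 0.061 CPM per kilobase, and the medians of *Trp53*, *Chek2*, *Bbc3* and *Pmaip1* were 0. *Trp63* nevertheless reached the highest single level of the set, 52.4 CPM per kilobase in primary control replicate 3. The ranges of neighbouring genes in this order overlapped over libraries, so the order describes medians only.

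**Figure D3:**
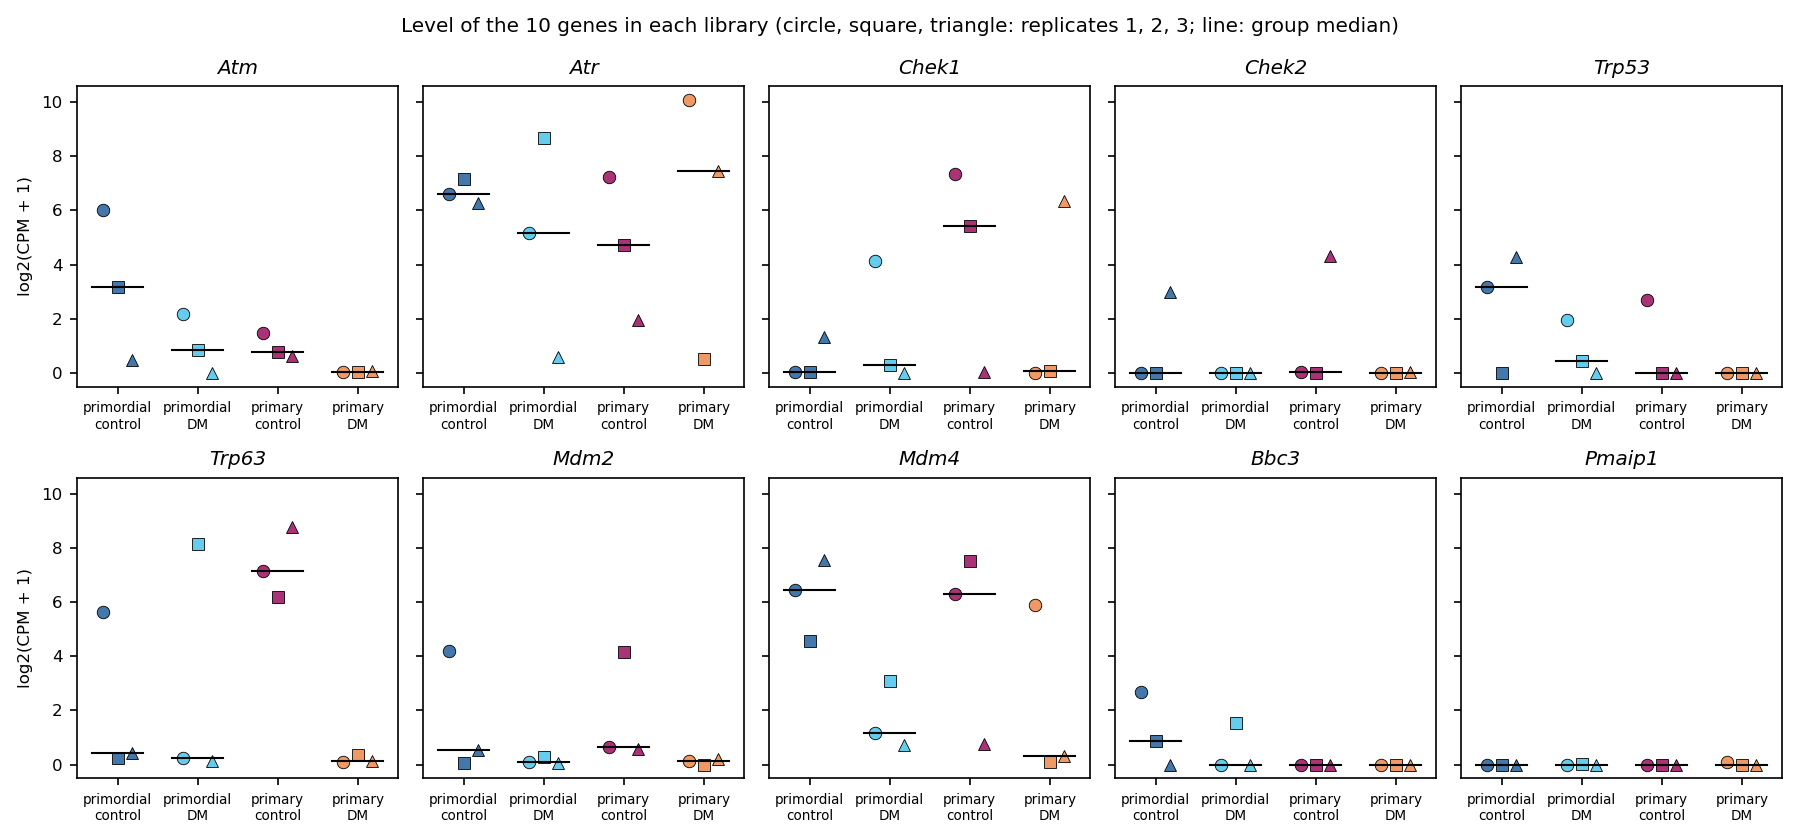
Level of each of the 10 genes as log2(CPM + 1) (vertical axis) in every library of the 4 groups. Circles, squares and triangles are replicates 1, 2 and 3, and the line is the group median. *Trp63* is high in all 3 primary control libraries and near 0 in all 3 primary DM libraries, *Mdm4* is lower in all 3 primordial DM than in all 3 primordial control libraries, and *Pmaip1* is near 0 throughout.

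To ask which of these genes differed after DM, counts were compared by edgeR's quasi-likelihood test over all genes that passed the filter within each stage. In primordial oocytes 6 of the 10 genes passed the filter and 0 had an adjusted p under 0.05, against 0.0149% of the 6699 genes tested. The only gene called in that comparison was *Pms2*, a mismatch repair gene named here after its values were seen. Its call was lost without primordial DM replicate 2, which held 144569 of its counts, and also without any 1 of the 3 primordial control libraries. At an unadjusted p under 0.05, 0 of the 6 genes and 7.33% of all genes tested were called. DESeq2 called 5.44% of all genes, 665 in number. It gave an adjusted p only to *Trp53*, *Atm*, *Atr*, *Mdm2* and *Bbc3* of the set, and called 0 of them. The other genes of the set, *Mdm4* among them, could not be called by it. In primary oocytes 6 genes passed the filter and again 0 were called, as was 0% of the 4181 genes tested. There, 1 of the 6 genes (*Trp63*) and 12.2% of all genes had an unadjusted p under 0.05. DESeq2 called 6.23% of all genes, 594 in number. Of the set it gave an adjusted p only to *Atm*, *Atr*, *Mdm2* and *Mdm4*, and called 0 of them, while the others could not be called by it. The median standard error over genes, on the log2 scale, was 2.84 in primordial and 3.14 in primary oocytes, so changes of several log2 units were within the spread. Median fold changes over all genes were 0.13 and 0.31 on the log2 scale, and the values below are not corrected for them. With 1 library left out this median lay between -0.84 and 0.38 in primordial and between -2.45 and 0.93 in primary oocytes. Values given below for such fits are not corrected for it either.

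*Trp63* (chr16:25683763-25892102, plus strand, GRCm38) showed the largest fitted difference of the 10 genes in primary oocytes, where it was high in controls and close to absent after DM. Its counts were 4843, 1007 and 13671 in primary control and 2, 12 and 3 in primary DM oocytes, that is 218 ± 195 and 0.147 ± 0.117 CPM (SD, n = 3). The groups did not overlap and were lower after DM, as was the case for 3 of the 6 genes tested (*Trp63*, *Atm* and *Mdm2*) and for 11.8% of all genes tested. The genes of the set that were not tested here overlapped. The fitted log2 fold change was -10.47 (SE 4.68), with an unadjusted p of 0.0252 and an adjusted p of 0.395 by edgeR over all genes. Leaving out 1 library at a time gave values from -11.96 to -7.08, the latter without primary control replicate 3, and the adjusted p lay between 0.208 and 0.999 over the alternatives. DESeq2 gave *Trp63* no p-value. The difference was thus large and without overlap, but did not pass the test over all genes. Oocyte markers summed to 13.9 to 1464 CPM in primary control and 56.6 to 1118 CPM in primary DM oocytes, and granulosa cell markers to 101 to 7450 and 373 to 11124 CPM, and their part in the difference of *Trp63* was not tested.

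The same gene behaved irregularly in primordial oocytes. *Trp63* counts were 1821, 7 and 5 in primordial control and 7, 9901 and 2 in primordial DM oocytes, a mean of 16.2 ± 27.6 and 94.7 ± 164 CPM (SD, n = 3). One library in each group was high and the remaining libraries had 2 to 7 counts. The fitted log2 fold change was 3.73 (SE 3.30, adjusted p = 0.796 by edgeR). It became -5.87 without primordial DM replicate 2 and 8.79 without primordial control replicate 1, so its direction rested on a single library. The difference between the DM effects of the 2 stages was -13.96 on the log2 scale (SE 4.82), with an unadjusted p of 0.00376 and an adjusted p of 0.130 in edgeR's interaction test, where 0 of 8500 genes passed, 18.9% had an unadjusted p under 0.05 and DESeq2 called 582. It fell to -4.89 without primordial DM replicate 2.

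Between the stages in controls, *Trp63* was higher in primary than in primordial oocytes without overlap. It was the only 1 of the 10 genes, 7 of them tested, to be so, against 1.23% of the 6726 genes tested. The log2 fold change of primary over primordial control oocytes was 6.13 (SE 2.82), with an unadjusted p of 0.0297 and an adjusted p of 0.749 by edgeR. Over the libraries left out it ranged from 3.30 to 12.19. Under DM *Trp63* did not pass the filter between the stages, with 94.7 ± 164 CPM in primordial and 0.147 ± 0.117 CPM in primary oocytes (SD, n = 3), and 9901 of the primordial DM counts lay in replicate 2. None of the 7 genes of the set tested between control stages was called, as was 0% of all genes, whereas 6.44% of genes had an unadjusted p under 0.05 and DESeq2 called 2.32%, or 280 genes.

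*Trp53* (chr11:69580359-69591873, plus strand), which encodes p53 itself, was found mainly in controls. Its counts were 305, 0 and 283 in primordial control and 110, 13 and 0 in primordial DM oocytes, or 8.93 ± 9.39 and 1.08 ± 1.56 CPM (SD, n = 3). Both groups held a library at 0 and overlapped. The estimate for DM was -2.67 on the log2 scale (SE 2.71, adjusted p = 0.827 by edgeR), with a range of -4.88 to -1.07 over the libraries left out. In primary oocytes counts were 187, 0 and 0 in control and 0, 0 and 0 after DM. Against a floor of 3 counts per library the mean level was at least 20.7-fold lower after DM, but this rests on primary control replicate 1 alone, without which both groups were at 0. The level in primary compared with primordial control oocytes was -2.04 on the log2 scale (SE 2.83, adjusted p = 0.947 by edgeR), but -10.63 without primary control replicate 1 and -0.48 without primordial control replicate 3. In DM libraries *Trp53* was at least 12.3-fold lower in primary than in primordial oocytes, and at least 2.11-fold lower without primordial DM replicate 1. A near-copy of the gene, *Trp53-ps*, is 97.7% identical over 353 bases and had at most 4 counts in a library. How reads that match both were counted is not given in the sources used here.

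*Mdm4* (chr1:132959484-133030561, minus strand), which binds p53 and blocks its activity, was lower in every primordial DM library than in any primordial control library. Counts were 3289, 833 and 2782 in control and 48, 265 and 14 after DM, that is 97.8 ± 81.3 and 3.17 ± 3.84 CPM (SD, n = 3). It was the single gene of the 10 without overlap in this comparison, and so 1 of the 6 tested. Of all genes tested, 11.0% were lower after DM without overlap. The fitted log2 fold change was -4.40 (SE 3.44), and the adjusted p was 0.759 by edgeR. It kept its direction with each library left out, from -6.15 to -3.33, and no call was made. DESeq2 gave *Mdm4* no adjusted p in this comparison. The summed level of granulosa cell markers was lower in the same libraries, whereas that of stroma and theca markers overlapped. The latter was 2545 to 3478 CPM in primordial control and 1639 to 3870 CPM in primordial DM oocytes. The summed level of 10 granulosa cell genes was 285 to 1776 CPM in primordial control and 3.80 to 169 CPM in primordial DM oocytes. Of these 10 genes, 4 could be tested. All 4 had a lower estimate after DM, and 2 were without overlap. *Amh* and *Inhbb*, by contrast, had their highest primordial counts in primordial DM replicate 2, at 89 and 145. Fewer oocyte markers were detected after DM, 4 to 9 against 11 to 14 of 16. Their summed level overlapped, at 34.9 to 1281 CPM in primordial control and 17.4 to 1075 CPM in primordial DM oocytes. The part of these markers in the difference of *Mdm4* was not tested.

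In primary oocytes *Mdm4* had 2632, 2536 and 21 counts in control and 1598, 3 and 9 after DM. High and low libraries occurred in both groups. DM against control gave a log2 fold change of -0.93 (SE 2.84, adjusted p = 0.864 by edgeR), it was -6.75 without primary DM replicate 1 and 0.04 without primary control replicate 2, and it was positive with DESeq2's scaling. The control stages differed by -0.27 (SE 2.69, adjusted p = 0.991 by edgeR). Between DM libraries the log2 fold change of primary over primordial oocytes was 3.38 (SE 2.87, adjusted p = 0.514 by edgeR), and it was -2.72 without primary DM replicate 1. In that comparison 2 of the 10 genes passed the filter and 0 were called, as was 0% of 4331 genes, with 0 of the 2 and 17.2% of all genes at an unadjusted p under 0.05 and 9.67% (932 genes) called by DESeq2. A near-copy, *Mdm4-ps*, is 97.1% identical to *Mdm4* over 140 bases and had at most 3 counts in a library. Shorter stretches of *Mdm4* match *Afap1*, *Dph5* and *Tbc1d24*.

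*Mdm2* (chr10:117688875-117710758, minus strand), the ubiquitin ligase that degrades p53 and is itself a p53 target, was low outside 2 control libraries. Its counts were 655, 2 and 7 in primordial control, 3, 7 and 1 in primordial DM, 19, 234 and 15 in primary control, and 3, 0 and 5 in primary DM oocytes. The primary groups did not overlap, whereas the primordial groups did. In primary oocytes the mean was 5.90 ± 9.33 CPM in control and 0.0839 ± 0.0745 CPM after DM (SD, n = 3), the log2 fold change was -4.50 (SE 2.67, adjusted p = 0.407 by edgeR), and it ranged from -5.35 to -2.73 over the libraries left out. *Mdm2* did not pass the filter in primordial oocytes, where the means were 5.94 ± 9.84 and 0.109 ± 0.081 CPM (SD, n = 3) and 655 of the 664 control counts lay in replicate 1. The control stages differed by 0.35 on the log2 scale (SE 2.71, adjusted p = 0.990 by edgeR), with values from -0.50 to 4.38 when a library was left out, and the sign turned when scaled by library size alone. Under DM the gene did not pass the filter between the stages, where its means were 0.109 ± 0.081 CPM in primordial and 0.0839 ± 0.0745 CPM in primary oocytes (SD, n = 3). Stretches of *Mdm2* transcripts also match other genes, over at most 143 bases.

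A p53 response element is built from a pair of decamer half-sites, and *Mdm2*, *Bbc3* and *Pmaip1* are known p53 targets. The promoters of RefSeq (GRCm38.p6, 300 bases from 250 before to 50 after the start) were searched for the p53 half-site motif on both strands. The 8 genes with an entry had 11 promoters in the table, of which 2 held a match, compared with 8.36% of 32851 promoters, and 0 held 2 half-sites within 13 bases, as 0.0731% of promoters did. The 50 bases around both matches are shown because these are the family's founding member and its classical feedback gene, with the half-site in capitals. The match lies 75 to 66 bases before the start in *Trp53* (chr11:69580264-69580313, plus strand) and 186 to 177 bases before it in *Mdm2* (chr10:117710915-117710964, minus strand). The well-known p53 elements of *Mdm2* are in its first intron, outside this window.
Trp53: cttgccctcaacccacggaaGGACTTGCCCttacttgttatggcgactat
Mdm2: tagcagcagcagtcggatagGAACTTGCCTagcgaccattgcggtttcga
A match is a description of letters and not of a bound site.

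Among the kinases, *Atm* (chr9:53439149-53536740, minus strand) was highest in 2 primordial control libraries. Counts were 2430, 299 and 6 in primordial control and 133, 28 and 0 in primordial DM oocytes, or 24.2 ± 34.8 and 1.43 ± 1.82 CPM (SD, n = 3). The lowest control library lay within the DM range. The fitted log2 fold change was -3.25 (SE 2.97, adjusted p = 0.806 by edgeR), from -4.84 to -1.58 over the libraries left out. In primary oocytes *Atm* had 61, 10 and 17 counts in control and 1, 1 and 2 after DM, without overlap. Summed over libraries and scaled to their totals, the control level was 29.2 times the DM level, with an exact 95% interval of 11.0 to 110 that covers counting error only, and 15.7 times without primary control replicate 1. The fitted log2 fold change of -3.70 (SE 2.43) had an adjusted p of 0.438 by edgeR. The control stages differed by -3.40 (SE 3.17, adjusted p = 0.881 by edgeR), primary being lower, and by -1.09 without primordial control replicate 1. Between DM libraries the summed level was 45.0 times higher in primordial than in primary oocytes (exact 95% interval 17.2 to 167, counting error only), and 13.2 times without primordial DM replicate 1. *Atm* was thus lowest in primary DM oocytes, at 4 counts in all.

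*Atr* (chr9:95857597-95951781, plus strand) was the only gene of the set detected in every library. Its counts were 3684, 5227 and 1150 in primordial control and 1347, 14196 and 11 in primordial DM oocytes, or 105 ± 33.1 and 148 ± 225 CPM (SD, n = 3). The DM libraries lay on both sides of the controls. Its log2 fold change was 0.94 (SE 2.68, adjusted p = 0.963 by edgeR) and turned to -2.29 without primordial DM replicate 2. In primary oocytes there were 5057, 358 and 89 counts in control and 29903, 19 and 6155 after DM, or 58.9 ± 78.3 and 421 ± 583 CPM (SD, n = 3). The groups overlapped through primary DM replicate 2, the lowest of the 6 libraries. The log2 fold change was 3.97 (SE 3.51), positive with every library left out (2.42 to 5.67), with an adjusted p of 0.545 by edgeR and 0.0541 by DESeq2. The control stages differed by -0.69 (SE 2.70, adjusted p = 0.986 by edgeR), with -2.58 without primary control replicate 1 and -0.038 without primordial control replicate 2. The DM stages differed by 2.45 (SE 3.02, adjusted p = 0.665 by edgeR), with 0.64 without primary DM replicate 1 and 5.49 without primordial DM replicate 2. Exons of *Atr* overlap those of 3 other annotated genes over 1366 bases of its 23629, and the strandedness of counting is not given in the sources used here.

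*Chek1* (chr9:36708482-36727065, minus strand), the kinase downstream of ATR, varied between 0 and 5460 counts. There were 1, 1 and 23 counts in primordial control and 628, 8 and 0 in primordial DM oocytes, and it did not pass the filter there, with means of 0.525 ± 0.863 and 5.55 ± 9.42 CPM (SD, n = 3). In primary oocytes *Chek1* had 5460, 584 and 1 counts in control and 0, 2 and 2800 after DM. Each primary group contained both a library with at most 1 count and one with 2800 or more. The log2 fold change of 0.58 (SE 2.86, adjusted p = 0.922 by edgeR) was positive although the mean CPM was lower after DM (26.6 ± 46.1 against 67.3 ± 83.1, SD, n = 3), it was -8.81 without primary DM replicate 3, and it was negative when scaled by library size alone. Primary control oocytes exceeded primordial control oocytes by 7.02 on the log2 scale (SE 3.82, adjusted p = 0.749 by edgeR and 0.0716 by DESeq2), with 4.98 to 11.16 over the libraries left out. One primary control library, at 1 count, lay within the range of the primordial controls, so the groups overlapped. Under DM the stages were not tested, and their means were 5.55 ± 9.42 CPM in primordial and 26.6 ± 46.1 CPM in primary oocytes (SD, n = 3), each resting on 1 library.

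*Chek2* (chr5:110839979-110874145, plus strand), which encodes the kinase that phosphorylates TAp63 in damaged oocytes, was detected in only 2 libraries, both controls. Its counts were 0, 0 and 106 in primordial control, 0, 0 and 0 in primordial DM, 1, 0 and 593 in primary control, and 0, 0 and 1 in primary DM oocytes. The gene passed the filter in none of the comparisons. In primordial oocytes the mean was at least 22.8-fold lower after DM, against a floor of 3 counts per library, and in primary oocytes the summed control level was 789 times the DM level (exact 95% interval 141 to 31213, counting error only). Both ratios rest on 1 control library each, replicate 3, and without it no fold can be given. Between the control stages the means were 2.34 ± 4.05 CPM in primordial and 6.36 ± 11.0 CPM in primary oocytes (SD, n = 3), and both DM groups were at 3 counts or fewer. Stretches of *Chek2* transcripts also match repeats in other genes, over at most 148 bases.

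The death effectors were found in few libraries. *Bbc3* (chr7:16308393-16318205, plus strand), encoding PUMA, had 203, 30 and 0 counts in primordial control and 0, 66 and 0 in primordial DM oocytes, or 2.06 ± 2.89 and 0.631 ± 1.09 CPM (SD, n = 3). It was at 0 in all 6 primary libraries. The log2 fold change in primordial oocytes was -0.70 (SE 2.13, adjusted p = 0.965 by edgeR), and it was -8.51 without primordial DM replicate 2 and 0.78 without primordial control replicate 1, and it was also positive with DESeq2's scaling. Compared with primordial control oocytes, primary control oocytes were at least 15.5-fold lower, or at least 3.05-fold without primordial control replicate 1. Under DM the stage difference was at least 7.14-fold and rests on primordial DM replicate 2. *Pmaip1*, encoding NOXA, had 1 count in primordial DM replicate 2, 2 counts in primary DM replicate 1 and 0 elsewhere, and no fold is given for it.

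**Figure D4:**
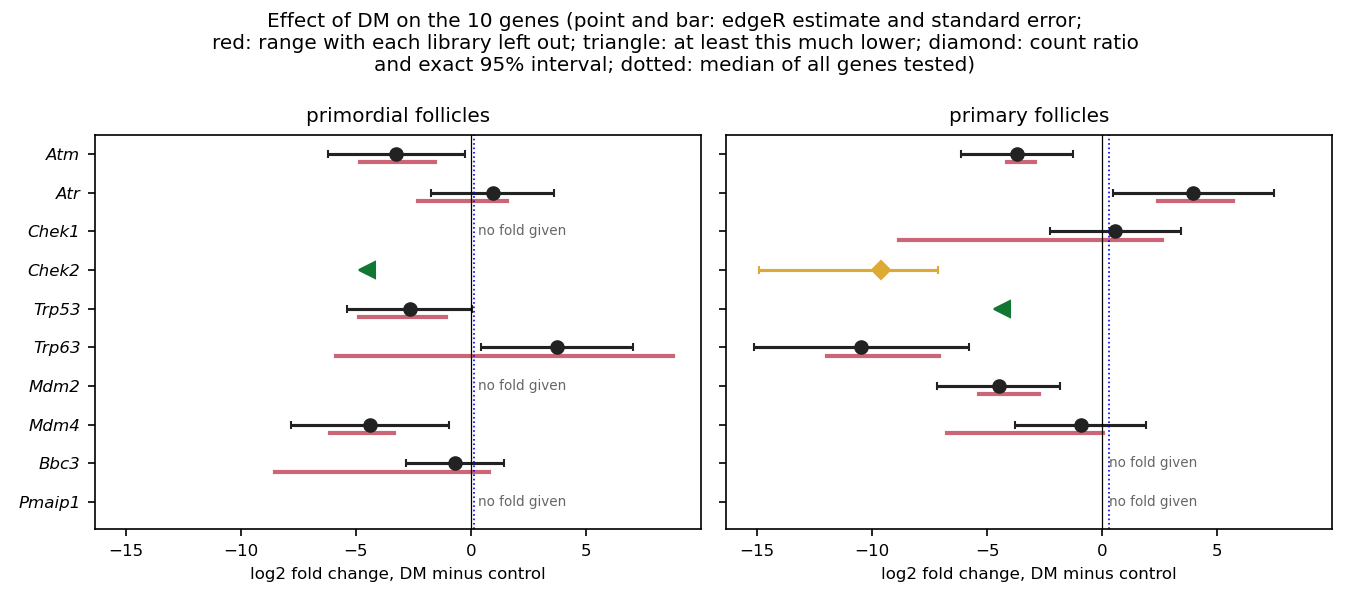
Log2 fold change of DM over control for the 10 genes in primordial (left) and primary follicles (right): black points and bars are the edgeR estimate and its standard error, red lines the range with each library left out, green triangles an upper limit of the log2 fold change against 3 counts per library, the yellow diamond a summed count ratio with its exact 95% interval, and the dotted line the median of all genes tested. The red lines of *Trp63*, *Atr* and *Bbc3* on the left and of *Chek1* and *Mdm4* on the right cross 0. Those of *Trp53*, *Atm* and *Mdm4* on the left and of *Trp63*, *Atm* and *Mdm2* on the right stay below 0, and that of *Atr* on the right stays above it.

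The interaction of stage and DM was also estimated for the other genes that passed the filter over 12 libraries. *Trp53* had -5.84 (SE 4.45, adjusted p = 0.455 by edgeR), *Chek1* -2.92 (SE 4.04, adjusted p = 0.706) and *Mdm4* 4.0 (SE 4.09, adjusted p = 0.592). For *Atr* it was 3.32 (SE 3.69, adjusted p = 0.626 by edgeR), for *Mdm2* 0.54 and for *Atm* -0.26. Only *Trp63* and *Atr* kept their sign with each of the 12 libraries left out. No value is given for *Bbc3*, whose primary groups were both at 0.

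Lists of genes around the 10 were read in the same fits, and none of their genes had an adjusted p under 0.05 by edgeR after DM. Of 17 damage sensors and mediators, 10 could be tested in primordial oocytes, where 3 had a higher and 7 a lower estimate after DM, and 4 in primary oocytes. *Clspn*, an adaptor through which ATR activates CHK1, had 27, 27 and 11 counts in primordial control and 0, 0 and 0 in primordial DM oocytes. It was at least 7.07-fold lower after DM, with an unadjusted p of 0.00595 and an adjusted p of 0.475 by edgeR. *Rpa1*, a subunit of the protein that coats single-stranded DNA, had 4291, 137 and 6325 counts in primordial control and 18, 60 and 1 after DM (log2 fold change -7.41, SE 3.86, adjusted p = 0.658 by edgeR and 0.0120 by DESeq2). In primary oocytes *Trp53bp1*, a mediator recruited to double-strand breaks, had a higher estimate after DM, with 21, 45 and 5 counts in control and 7849, 27574 and 8 after DM (9.87, SE 4.50, adjusted p = 0.395 by edgeR and 3.33e-05 by DESeq2). The groups overlapped, since primary DM replicate 3 lay within the control range. *Mdc1*, another mediator, had 14, 32 and 69 counts in primary control and 1, 1 and 0 after DM, a summed ratio of 76.4 (exact 95% interval 20.7 to 638, counting error only), with an adjusted p of 0.396 by edgeR.

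Of 10 checkpoint effectors 6 could be tested in either stage, with 3 estimates in each direction, or 1 higher and 5 lower in primordial oocytes when scaled by library size alone. *Cdc25a*, the phosphatase that CHK1 targets for destruction, had 1531, 15 and 919 counts in primordial control and 2, 0 and 0 after DM, a summed ratio of 1289 with an exact 95% interval of 356 to 10648 for counting error only. Its adjusted p was 0.632 by edgeR and 0.00322 by DESeq2. In primary oocytes the log2 fold change of *Cdc25a* was -3.31 (SE 2.77, adjusted p = 0.526 by edgeR), and -7.23 without primary DM replicate 2. The kinase gene *Csnk1e* had 3812, 19246 and 465 counts in primordial control and 10, 23 and 9 after DM (-8.59, SE 3.86, adjusted p = 0.658 by edgeR). In primary oocytes it had 160, 3513 and 91413 counts in control and 13, 16 and 188 after DM (-9.60, SE 3.96, adjusted p = 0.395 by edgeR), where the highest DM library exceeded the lowest control. Without primary control replicate 3 this value was -3.64.

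The 10 other p53 family members and regulators gave 6 tested genes in primordial oocytes, all with a higher estimate after DM under TMM but 3 higher and 3 lower when scaled by library size alone. In primary oocytes 4 could be tested, 3 higher and 1 lower under TMM and the reverse by library size alone. *Trp53bp2* had 4.23 in primordial oocytes (SE 3.41, adjusted p = 0.767 by edgeR), but 1.71 without primordial DM replicate 1 and 11.85 without primordial control replicate 1. *Itch* had 2.15 (SE 2.44, adjusted p = 0.856 by edgeR), and -0.95 without primordial DM replicate 1. In primary oocytes *Wwp1* had 4.18 (SE 3.56, adjusted p = 0.532 by edgeR), and -4.48 without primary DM replicate 1. *Usp7*, a deubiquitinase of MDM2 and p53, had -2.94 (SE 3.01, adjusted p = 0.605 by edgeR), with -8.93 without primary DM replicate 3 and -0.93 without primary control replicate 3. *Trp73*, the third member of the p53 family, and *Cdkn2a* were never detected. Of 20 p53 target genes 6 could be tested in primordial and 0 in primary oocytes. *Ccng1* had 1990, 2 and 1528 counts in primordial control and 0, 12 and 3 after DM (-7.60, SE 3.89, adjusted p = 0.658 by edgeR and 0.0363 by DESeq2), with overlap between the groups. For *Trp53inp1* the value was -5.28 (SE 3.18, adjusted p = 0.664 by edgeR), and it rested on primordial control replicate 1, without which it was 0.15. *Cdkn1a*, the p21 gene, was detected in 3 of the 12 libraries, all of them DM libraries. It had 6 counts in primordial DM replicate 1, and 10 and 16 in primary DM replicates 1 and 2. Every other library had at most 1 count.

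For *Atr* and *Mdm4*, the genes detected in the most libraries, the most similar patterns among the 8500 genes were sought by Pearson's r of log2 CPM over the 12 libraries. Closest to *Atr* were *Eif5b* (r = 0.916), *Ago3* (0.890) and *Gm42743* (0.869). *Mdm4* was followed most closely by *Relch* (0.931), *Phc3* (0.912) and *Ddx42* (0.887). With 12 points that share their libraries and their depth, these values are descriptions.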

How the data were processed

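RNA sequencing counts of 12 libraries of laser-captured mouse oocytes were used. After trimming with trim_galore, the authors mapped reads to mm10 (TopHat2 in the methods, STAR in the submitters' processing notes), counted reads per gene with featureCounts and deposited raw counts without normalization. Symbols and positions were matched by identifier to GENCODE vM21 (55141 of 55401 genes). The 10 members and all gene lists were chosen with earlier results of these data known. Every member was given in every comparison, by counts where it was not tested, and up to 2 genes with the smallest p were named per pathway list and DM comparison. *Trp73*, *Cdkn2a* and *Cdkn1a* were named in addition.

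Groups were compared in R 4.3.3 with edgeR 4.0.16 (filterByExpr, TMM, glmQLFit and glmQLFTest, prior count 0.125) on the libraries compared, or on all 12 for the interaction, with Benjamini-Hochberg adjustment over all genes tested and a threshold of 0.05. Standard errors came from the fold change and the F statistic. Folds against groups at 0 used 3 counts per library, and groups with 1 to 3 counts per library were given as summed ratios with Clopper-Pearson intervals instead of the planned bound. The code was tested on simulated data. Pairs of libraries within a group differed by far more than sampling noise, and each was kept as 1 sample. DESeq2 1.42.0, other scalings, filters and prior counts, a replicate block and each library left out were tried. Other steps used Python 3.11.15.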

Additional observations from a re-analysis of the deposited data

How the results depend on the processing

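No member was called in any edgeR setting or by DESeq2, which in each comparison gave some members no adjusted p and so could not call them. Genes called in all were 1 for DM in primordial oocytes (491 at an unadjusted p, 665 by DESeq2, 0 with DESeq2 size factors, library size alone, no filter, at least 10 counts, the replicate block or all 12 libraries, and 0 to 3 with a library left out), 0 for DM in primary oocytes (508 at an unadjusted p, and by DESeq2 594, of which 413 higher and 181 lower), 0 between control stages (433, 280 by DESeq2, 1 by library size alone, 4 with at least 10 counts), 0 between DM stages (746, 932 by DESeq2, 0 to 4 with a library left out) and 0 for the interaction (1605, 582 by DESeq2). Of the named pathway list genes, DESeq2 alone called *Rpa1* (-7.40), *Cdc25a* (-10.00), *Ccng1* (-7.22) and *Trp53bp1* (11.67). Some cell type markers were also called by DESeq2 alone for DM in primordial oocytes. These included *Foxl2* and *Nr5a2* of granulosa cells (adjusted p = 0.0351 and 0.0143 by DESeq2) and *Dcn* of stroma (0.0243). Scaling moved the median of all genes to 0.56 and 2.04 (DESeq2 size factors) and -0.43 and -0.96 (library size alone, added after seeing the data) in primordial and primary oocytes. Under the replicate block this median was -0.58 and -1.09.

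Signs of uncalled log2 fold changes turned as follows, and the cause was not tested. In primordial DM, *Trp63* was -1.06 and *Atr* -1.12 under the replicate block, and *Bbc3* 0.18 by DESeq2 and 0.13 with its size factors. In primary DM, *Chek1* was -1.45 by library size alone and -6.92 under the block, *Mdm4* 1.52 by DESeq2 and 1.19 with its size factors, and *Wwp1* -0.51 under the block. Between control stages *Mdm2* was -0.030 by library size alone. In the interaction, *Chek1* was 0.64 by DESeq2 and 0.71 with its size factors, *Atm* 0.20 with a prior count of 2 and *Mdm2* -0.36 by library size alone. With a library left out, ranges that crossed 0 were -5.87 to 8.79 (*Trp63*), -2.29 to 1.58 (*Atr*), -8.51 to 0.78 (*Bbc3*), -0.95 to 2.72 (*Itch*) and -6.03 to 0.15 (*Trp53inp1*) for primordial DM, -8.81 to 2.59 (*Chek1*), -6.75 to 0.037 (*Mdm4*) and -4.48 to 9.55 (*Wwp1*) for primary DM, -0.50 to 4.38 (*Mdm2*) and -0.92 to 0.79 (*Mdm4*) between control stages, -2.72 to 4.99 (*Mdm4*) between DM stages, and, for the interaction, -7.56 to 2.55 (*Trp53*), -12.51 to 2.32 (*Chek1*), -1.95 to 1.07 (*Atm*), -3.29 to 1.62 (*Mdm2*) and -2.21 to 5.41 (*Mdm4*).

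Of the other values, 320 under another setting and 271 with a library left out kept their direction and their side of the threshold. Same-numbered replicates did not deviate together (correlations -0.0377 to 0.0314), and the replicate block left 0 genes called in each comparison. With so large a spread between libraries of a group, these correlations cannot exclude that some libraries shared ovaries or a culture. No difference is read between values at or under 3 counts.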
